A study of Mus musculus with 2 samples.

Results

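The cells described here were 105 cells rich in MHC class II transcripts, out of 4502 analysed cells, in single-cell RNA-seq of sorted mouse skeletal tissue. They were chosen by measured values. A cell had to hold at least 500 genes, at most 10% mitochondrial unique molecular identifiers (UMIs, 1 per captured transcript) and at least 0.5% of its UMIs in *H2-Aa*, *H2-Ab1*, *H2-Eb1* and *Cd74* together. It also needed at least 1 UMI of the dendritic cell genes *Cd209a*, *Flt3*, *Xcr1* and *Itgax*, at most 1 UMI of the B cell genes *Cd79a* and *Cd79b*, fewer than 5 UMIs of the macrophage genes *C1qa*, *C1qb* and *C1qc*, and fewer than 2 UMIs of the plasmacytoid marker *Siglech*. This gave 9 cells in the intact library and 96 in the callus library. The working name of the set was dendritic cells, but not every cluster of it carried all the genes that define that cell type. The cells are therefore called class II-high cells by their rule. The class II limit was met by 117 intact and 496 callus analysed cells, before the other markers were applied. The name thus does not cover every class II-rich cell.

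The study followed the fate of cells that express *Clec3b*, the gene of tetranectin, in bone healing. Mice carried the tamoxifen-inducible knock-in *Clec3b.creERT2* and the *Ai14.R26.tdTomato* reporter, so that tamoxifen permanently marks cells expressing *Clec3b* and their descendants. In the fracture experiments tamoxifen preceded a stabilized femoral fracture by 2 weeks, with surgery at 6 weeks of age. At 3 weeks after surgery, tissue of 3 littermates was pooled by condition into intact femoral diaphyses with surrounding muscle (no treatment) and calluses (fracture), digested with collagenase, sorted for tdTomato and run as 1 10x Chromium library each. Both groups therefore share genotype and tamoxifen, mice cannot be told apart within a pool, and with 1 library per condition no test between them was possible. The mice were described as male. The class II-high cells nevertheless carried *Xist*, which is transcribed from an inactive X, in 8 intact and 87 callus cells, and 0 UMIs of 8 Y-linked genes.

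The intact library held 1872 barcodes and 12112002 UMIs, of which 1207 cells were analysed, and the callus library 3987 barcodes and 36714322 UMIs, with 3295 cells analysed. The libraries shared 1 cell barcode. Class II-high cells had a median of 9258 UMIs in the intact and 7848 in the callus library. Their summed depth was 80497 intact and 850358 callus UMIs, so that a median gene among those compared below held 4 intact and 46 callus UMIs. The deepest intact cell alone held 19.4% of the intact UMIs. None of the 105 cells held a *Clec3b* UMI, which allows a share of cells with a UMI, not of cells expressing the gene, of up to 33.3% in the intact and 3.13% in the callus library. Among all analysed cells, 290 intact and 233 callus cells held a *Clec3b* UMI. The study set hematopoietic clusters aside, which it regarded as sorting artifacts with little reporter expression, so shares and levels here describe cells that came through the sort and not the *Clec3b* lineage. The reporter transcript was not analysed here.

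MHC class II molecules present peptides taken up from outside the cell to CD4+ T cells. *H2-Aa*, *H2-Ab1* and *H2-Eb1* encode their chains, *Cd74* the invariant chain that guards the groove, *H2-DMa* and *H2-DMb1* the peptide exchange factor, *H2-Oa* and *H2-Ob* its inhibitor, and *Ciita* the coactivator that switches the genes on. Dendritic cells are the main professional presenting cells. Conventional type 1 cells depend on *Irf8* and *Batf3* and carry *Xcr1* and *Clec9a*, type 2 cells are associated with *Irf4*, *Cd209a* and *Mgl2*, and inflamed tissue also holds monocyte-derived cells with many of the same genes.

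Class II promoters are known for the Y box, an element with inverted CCAAT letters that NF-Y binds. Promoter stretches of 9 class II chain genes from RefSeq (GRCm38.p6, the build named mm10 in the labels) were searched for TGATTGG on both strands, in windows from 250 bases before to 50 after the start. The letters were found at 7 of 8 class II genes with an entry, against 7.82% of all 32851 promoters. *H2-DMa* was the exception in its 2 windows, *H2-Ab1* had no entry, and *Cd74* was not searched. The letters began 50 bases before the annotated start in *H2-Aa* (chr17:34287844-34287923, minus strand), 61 in *H2-Eb1* (chr17:34305756-34305835, plus strand), 63 in *H2-DMb1* (chr17:34153078-34153157, plus strand), 92 in *H2-DMb2* (chr17:34145107-34145186, plus strand) and 45 in *H2-Oa* (chr17:34092284-34092363, plus strand). These 5 are shown 5′ to 3′ on the gene's strand, with the searched letters in capitals, because *H2-Aa*, *H2-Eb1* and *H2-DMb1* were high in all 4 clusters described, whereas *H2-DMb2* was highest in the *Retnla* and *H2-Oa* in the *Mgl2* cluster. A match describes letters only.
H2-Aa: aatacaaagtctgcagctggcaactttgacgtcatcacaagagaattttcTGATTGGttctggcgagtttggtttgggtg
H2-Eb1: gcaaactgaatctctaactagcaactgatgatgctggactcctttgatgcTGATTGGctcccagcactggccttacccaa
H2-DMb1: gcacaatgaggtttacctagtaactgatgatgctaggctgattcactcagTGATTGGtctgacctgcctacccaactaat
H2-DMb2: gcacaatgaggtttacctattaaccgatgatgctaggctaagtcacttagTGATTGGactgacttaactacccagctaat
H2-Oa: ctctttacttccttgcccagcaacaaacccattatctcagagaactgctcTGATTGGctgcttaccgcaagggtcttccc
*H2-DMb1* and *H2-DMb2* are close copies, so reads may have been split between them with error.

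Class II-high cells made up 0.746% of the analysed intact cells (95% Clopper-Pearson interval 0.342 to 1.41) and 2.91% of the analysed callus cells (2.37 to 3.55). The intervals did not overlap, but they cover counting error only, and the sort and the pooling of 3 mice could set these shares. The cells that passed were not at the edge of the class II limit in the intact library, where the lowest held 2.57% and the highest cell failing on this limit alone 0.494%. In the callus library the lowest cell inside held 0.618% and the nearest outside 0.492%. More passing cells lay at the limit on *Cd209a*, *Flt3*, *Xcr1* and *Itgax*, where 15 callus cells and 1 intact cell had exactly 1 such UMI. On it alone 4 intact and 38 callus cells failed. For the class II limit, 0 intact and 4 callus cells lay inside within 2-fold of it. On the class II limit alone 27 intact and 179 callus cells failed.

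The 4 entry genes did not contribute alike. *Cd209a*, a C-type lectin of the DC-SIGN family on chromosome 8 (3743397 to 3748984 in GRCm38, minus strand), had UMIs in 8 intact and 70 callus cells. *Flt3*, the receptor for the cytokine that sustains dendritic cells, was carried by 1 intact and 47 callus cells, and *Itgax*, which encodes CD11c, by 4 and 49. *Xcr1*, the chemokine receptor of type 1 cells, was found in 0 intact and 5 callus cells. *Cd209a* was the only entry gene in 4 intact and 20 callus cells, *Itgax* in 1 and 13, and *Flt3* in 0 and 5.

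Class II expression itself was high in every cell, as the rule required. The summed class II share ranged from 2.57% to 8.84% with a median of 5.04% in the intact cells, and from 0.618% to 9.36% with a median of 4.50% in the callus cells. The 2 libraries overlapped over the whole intact range. *H2-Ab1* (chromosome 17, 34257689 to 34269419, plus strand) was summed to 9963 counts per 1000000 UMIs (CPM) in the intact and 8262 CPM in the callus class II-high cells, and *Cd74* to 22398 and 19301 CPM. Levels are given as CPM of 3′ UMI counts, which do not scale with transcript length.

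**Figure D1:**
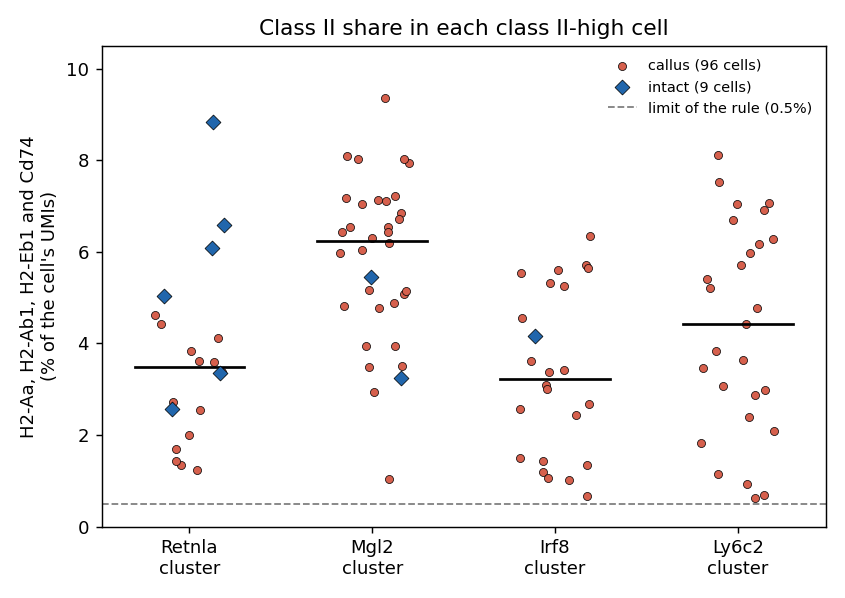
Share of each cell's UMIs in *H2-Aa*, *H2-Ab1*, *H2-Eb1* and *Cd74* (y axis, %) for 9 intact (diamonds) and 96 callus (circles) class II-high cells, by Leiden cluster, with black bars at cluster medians and the rule's limit of 0.5% dashed. The *Mgl2* cluster had the highest median, 6.24%, and the intact diamonds lie within the range of all 96 callus circles, although 4 of the 6 in the *Retnla* cluster lie above every callus circle of that cluster.

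Genes that the rule did not use were ranked against all other analysed cells together. The 15 leading genes, ranked by the smaller of the intact and callus ratios over all other analysed cells of the same library, were *Tnip3*, *Fcrls*, *Batf3*, *Clec4b1*, *Mgl2*, *Skint3*, *H2-DMb1*, *Clec10a*, *Slamf9*, *Ciita*, *Shtn1*, *Retnla*, *Cd209d*, *Cysltr1* and *Olfm1*. *Tnip3*, an inhibitor of NF-kB signalling, stood at 435 CPM in the intact and 612 CPM in the callus class II-high cells, which was 61.0-fold and 53.7-fold the level in the other cells. *Batf3*, a transcription factor that type 1 dendritic cells require, was 45.1-fold and 29.5-fold the rest. *H2-DMb1* was 33.1-fold and 21.4-fold the rest, and *Ciita* 32.5-fold and 15.2-fold. Both are genes of the class II pathway, whose transcripts picked the cells, so high ratios over the rest were favoured by the rule. The list thus held C-type lectins (*Clec4b1*, *Mgl2*, *Clec10a*, *Cd209d*), class II machinery and *Batf3* together. *Mgl2* and *Clec10a* are neighbouring close copies on chromosome 11, and *Cd209d* belongs to the *Cd209* family, so reads of these genes may have been split with error.

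Leading genes were set against macrophages and monocytes of the same library. *Batf3* in the callus class II-high cells was 2.39-fold its level in the 122 callus macrophages (95% interval for counting error 1.76 to 3.27) and 16.4-fold that in the 506 callus monocytes (12.4 to 21.8). In the intact library the same ratios were 1.81 (0.929 to 3.57) against macrophages and 24.3 (10.4 to 63.5) against monocytes. *Mgl2* was 2.22-fold its macrophage level in the callus (1.91 to 2.60) but 1.04-fold in the intact library (0.786 to 1.36), and *Clec10a* 1.02-fold (0.840 to 1.24) and 0.634-fold (0.369 to 1.05). The counting intervals of all 3 genes therefore included equality with macrophages in at least 1 library. Of the 15 leading genes, *Tnip3*, *Clec4b1*, *Skint3*, *H2-DMb1*, *Ciita* and *Olfm1* had intervals above 1 against macrophages in both libraries, whereas those of *Clec10a*, *Shtn1* and *Cysltr1* included 1 in both. *Retnla* was 0.370-fold (0.325 to 0.421) its intact macrophage level and 1.11-fold (1.05 to 1.17) its callus one, and *Cd209d* 0.398-fold (0.159 to 0.879) and 2.66-fold (1.60 to 4.56).

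*Tnip3* separated the cells from macrophages more widely, with 3.64-fold the macrophage level in callus (3.02 to 4.41) and 2.39-fold in intact tissue (1.38 to 4.21). *Olfm1*, the gene of olfactomedin 1, was 2.25-fold (1.75 to 2.91) and 3.16-fold (1.56 to 6.72). *Zbtb46*, a transcription factor that marks conventional dendritic cells and endothelium, had 19 UMIs in 13 callus and 3 UMIs in 3 intact class II-high cells, and 0 UMIs in the macrophages of both libraries. Against callus monocytes, which held 3 *Zbtb46* UMIs, the callus ratio was 56.6 (16.7 to 298).

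*Csf1r* and *Mrc1* were low in comparison with macrophages. *Csf1r*, the receptor for macrophage colony-stimulating factor, was 0.321-fold its macrophage level in callus (0.260 to 0.394) and 0.173-fold in intact tissue (0.0803 to 0.332). *Mrc1*, the mannose receptor, was 0.368-fold (0.311 to 0.434) and 0.213-fold (0.128 to 0.336). Over the 17 genes of the macrophage list, the class II-high cells held 584 CPM (intact) and 1552 CPM (callus), against 22651 and 20666 CPM in macrophages. The list includes the C1q genes, which the rule limited and by which the macrophages were picked, so nothing is read from this gap. In the class II-high cells 16 of the 17 genes had a UMI, *Apoe* was the most abundant and *Lyve1* was at 0. Hence *Mrc1* and *Apoe* of this list, and *Csf1r*, which was counted in the monocyte list, were below their macrophage level in both libraries. None of the 3 was used by the rule. The other genes of the macrophage list were not compared singly with macrophages here.

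*Ccr2*, the receptor that brings monocytes into tissue, was higher in the class II-high cells than in the monocytes themselves. It stood at 1068 CPM (9 of 9 cells) in the intact and 921 CPM (92 of 96 cells) in the callus class II-high cells, against 532 and 454 CPM in monocytes. The ratio was 2.01 (1.57 to 2.54) and 2.03 (1.88 to 2.19). *Ly6c2*, the surface marker of classical monocytes, was at 0 UMIs in the intact class II-high cells and at 122 CPM in the callus ones, against 1476 and 1619 CPM in monocytes. The monocytes were picked by UMIs of *Ly6c2* and *Ccr2* together, so their levels of both genes were partly set by that choice. Against monocytes picked in this way, the class II-high cells had higher *Ccr2* and lower *Ly6c2* in both libraries.

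**Figure D2:**
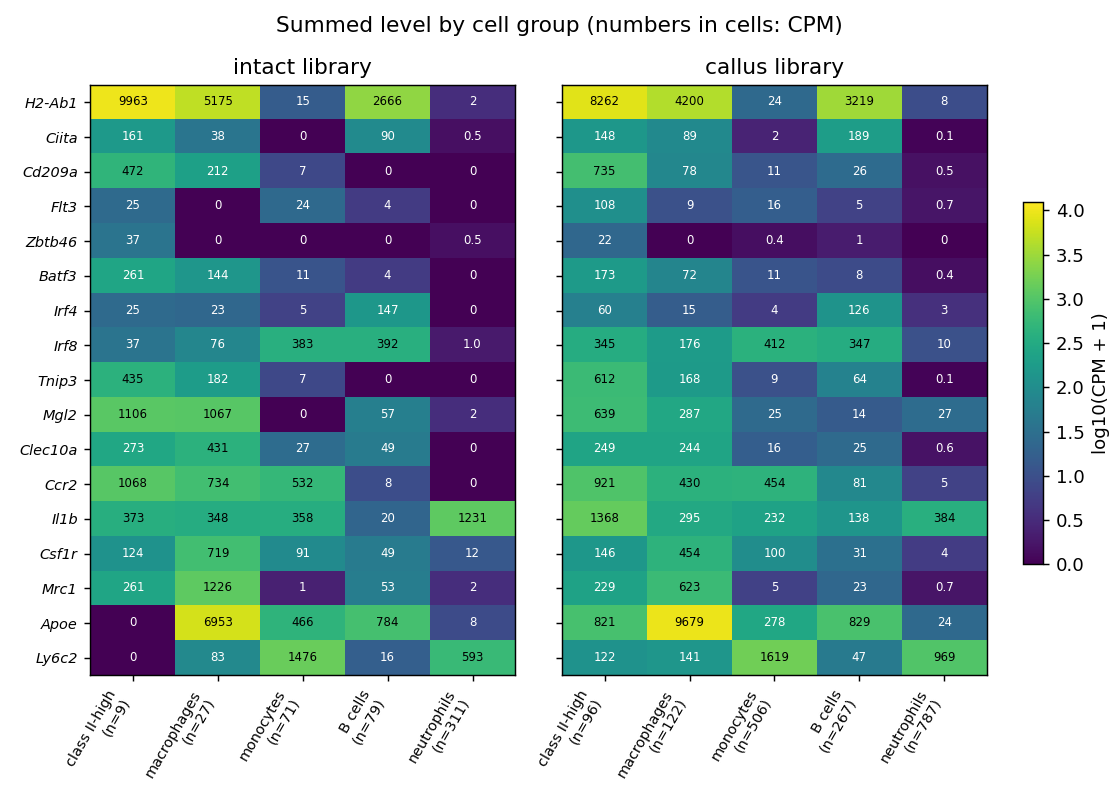
Summed level (CPM, written in each tile and coloured as log10(CPM + 1)) of 17 genes in class II-high cells and 4 other cell groups of the intact (left) and callus (right) library, with the number of cells n. *Tnip3*, *Batf3* and *Zbtb46* are highest in the class II-high column in both panels, whereas *Apoe* and *Mrc1* are highest in macrophages.

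Depth affects which genes a cell shows, so cells were also thinned to 4000 UMIs, which left 8 of 9 intact and 87 of 96 callus class II-high cells. In neutrophils, the most abundant cells, 223 intact and 668 callus cells remained as a measure of free RNA. After thinning, *Batf3* was seen in 51.7% of callus class II-high cells (65.6% unthinned) against 0.449% of callus neutrophils, and *Ccr2* in 86.2% (95.8%) against 1.35%. *Zbtb46* was seen in 11.5% (13.5%) against 0 of 668 neutrophils, which allows a share of up to 0.449%. These callus shares lay above the neutrophil shares. In the 8 thinned intact cells *Batf3* was seen in 37.5% and *Ccr2* in 87.5%, and *Zbtb46* in 0, which allows a share of up to 37.5%. *S100a8*, an abundant neutrophil transcript, was in 39.1% of thinned callus class II-high cells. The neutrophil list summed to 369 CPM in the callus class II-high cells against 358890 CPM in callus neutrophils. Neutrophils were picked by *S100a8* and *S100a9*, genes of that list, so their level was partly set by that choice. *Ighm* of B cells was in 43.7% of thinned callus class II-high cells and in 15.0% of thinned callus neutrophils.

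The cells were not uniform. Clustered on their own they formed 4 groups, here called by a leading gene. The *Retnla* cluster had 20 cells (6 intact, 14 callus), the *Mgl2* cluster 34 (2 and 32), the *Irf8* cluster 24 (1 and 23) and the *Ly6c2* cluster 27 (0 and 27). The leading genes of the clusters were used to form them and are given as a description, as are the other genes named by cluster, which were chosen after their values were seen. No cluster was given a cell type name. At a resolution of 0.3 there were 3 groups, of 20, 61 and 24 cells, and at 1.0 there were 5, so the number of groups depended on this setting.

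The *Retnla* cluster was led by *Retnla*, the secreted resistin-like protein alpha of alternatively activated myeloid cells, at 14845 CPM against 12.2 CPM in the other clusters. *Lyz1*, *Fn1* (fibronectin), *Ecm1*, *Fcrls*, *Mmp19* and *Lpl* followed. *Retnla* was uneven within it, with 2874 UMIs in 14 of 20 cells. In the callus library 16 class II-high cells carried it, with a median of 94 UMIs and a highest value of 944, and in the intact library 3 did, with 1, 121 and 169 UMIs. *Batf3* was higher in this cluster, at 372 CPM in 19 of 20 cells, than in the other 3 clusters, where it lay between 120 and 143 CPM.

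The *Retnla* cluster lacked some of the genes by which dendritic cells are defined. Most of its cells carried *Itgax*, with up to 6 UMIs in a cell. Without *Flt3* or *Xcr1* UMIs, they could pass the rule only through *Itgax* or *Cd209a*. Cells of the cluster therefore had to carry at least 1 of these genes. *Flt3* and *Irf8* each had 0 UMIs in its 20 cells, where a Poisson interval allows up to 19.1 CPM, and *Zbtb46* had 1 UMI. *Ly6c2*, *Plac8* and *Fcgr1* of monocytes and macrophages were also at 0, and *Apoe* had 1 UMI. The monocyte list as a whole was nevertheless at 5863 CPM, with at least 10 UMIs in 19 of the 20 cells, and its member *Fn1* was at 3874 CPM. *Itgam*, which encodes CD11b, was at 527 CPM against 140 to 286 CPM in the other clusters, and *Ccl6*, a myeloid chemokine, at 2226 CPM against 269 to 794 CPM. *Cd209a* was seen in 10 of the 20 cells, beside 0 UMIs of *Flt3*.

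The *Mgl2* cluster had the highest class II levels, with *Cd74* at 26564 CPM and *H2-Ab1* at 12048 CPM. *Cd209a* was at 1324 CPM in 31 of 34 cells, *Mgl2* at 1467 CPM in 26 cells and *Clec10a* at 539 CPM. Its other leading genes were *Klrd1*, *Tnfsf9* (4-1BB ligand, a co-stimulator of T cells), *H2-Oa*, *Cd163*, *Bhlhe40* and *Ccnd1*. *Cd83*, a marker of activated presenting cells, was at 605 CPM here against 98.1 CPM in the *Retnla* cluster. The type 2 list, which holds the rule's *Cd209a*, summed to 4028 CPM here against at most 2061 CPM in the others, although its member *Itgam* was highest in the *Retnla* cluster. *Flt3* was at 139 CPM.

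The *Irf8* cluster held all *Xcr1* and 28 of 30 *Clec9a* UMIs, genes of type 1 cells. *Irf8* was at 904 CPM in 19 of 24 cells, against 205 CPM or less in the other 3, and *Clec9a* at 106 CPM in 8 cells. All 24 *Xcr1* UMIs of the data set's class II-high cells lay here, in 5 callus cells, 17 of them in 1 cell. The cluster was mixed, however. In it 7 cells, with 14 to 38 *Irf8* UMIs each, held 215 of its 239 *Irf8* UMIs and 624 of its 758 UMIs of the type 1 list, and 1 of these 7 carried *Cd209a*. The other 17 had 0 to 5 *Irf8* UMIs, and 16 of them carried *Cd209a*. Its leading gene by ratio was *Hbb-bs*, beta globin, because 1 callus cell with 21420 UMIs held 8175 of the cluster's 8243 red cell UMIs, and another with 42121 UMIs held 104 *Mpo* and 55 *Mcpt8* UMIs, genes of granulocyte and basophil precursors. Its 1 intact cell was the shallowest of the intact cells, with 2307 UMIs.

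2 further findings in the *Irf8* cluster rested on single cells. *Ccr7*, the receptor that leads mature dendritic cells to lymph nodes, had 31 UMIs in the callus class II-high cells, of which 29 were in 1 cell with 6132 UMIs. The same cell held 23 of the 24 UMIs of *Il12b*, the shared chain of interleukins 12 and 23, as well as 3 *Xcr1* UMIs, and *Il12b* had 0 UMIs in the other 1198 intact and 3199 callus analysed cells. The remaining *Il12b* UMI was in the cell with 17 *Xcr1* UMIs. *Fscn1*, another gene of mature migratory cells, had 2 UMIs in all callus class II-high cells.

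The *Ly6c2* cluster, with callus cells only, carried monocyte and macrophage genes. *Ly6c2* was at 439 CPM in 15 of 27 cells, *Plac8* at 2037 CPM in 26, *Cebpb*, a myeloid transcription factor, at 1368 CPM in 27 and *Fcgr1*, the high-affinity IgG receptor, at 115 CPM in 11. *Apoe* was at 2870 CPM in 16 cells. *Flt3* was present at 94.9 CPM in 13 cells, whereas *Zbtb46* was at 0 UMIs, where a Poisson interval allows up to 18.4 CPM. Its monocyte list summed to 7174 CPM, against 5863 CPM in the *Retnla* cluster, 2069 CPM in the *Mgl2* cluster and 2474 CPM in the *Irf8* cluster. Both *Flt3* and *Zbtb46* were carried in the *Mgl2* cluster, with 7 *Zbtb46* UMIs, and in the *Irf8* cluster, with 14.

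Genes of the class II pathway differed in pattern among the clusters. *H2-DMb1* was even, between 624 and 781 CPM. *H2-DMb2*, the other beta chain gene of the exchange factor, was highest in the *Retnla* cluster at 160 CPM (Poisson interval 109 to 227) and lowest in the *Ly6c2* cluster at 15.0 CPM (3.09 to 43.8). *H2-Oa*, the inhibitor chain, ran the other way between the first 2 clusters, with 0 UMIs in the *Retnla* cluster and 158 CPM (114 to 212) in the *Mgl2* cluster. *Ciita* lay between 93.0 and 231 CPM. Promoters of both *H2-DMb2* and *H2-Oa* held the letters shown above.

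The cytokine and chemokine list summed to 5088 CPM in the *Retnla*, 5734 CPM in the *Mgl2*, 6899 CPM in the *Ly6c2* and 1789 CPM in the *Irf8* cluster. *Il1b*, the gene of interleukin 1 beta, stood at 2087 CPM in the *Mgl2* and 2386 CPM in the *Ly6c2* cluster, against 191 CPM in the *Retnla* and 412 CPM in the *Irf8* cluster. *Ccl4*, an inflammatory chemokine, was at 1842 and 1333 CPM, against 408 and 231 CPM. *Id2*, a transcriptional regulator needed for type 1 cells, had the complementary pattern, with 413 CPM in the *Retnla* and 344 CPM in the *Irf8* cluster against 40.4 and 69.9 CPM.

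**Figure D3:**
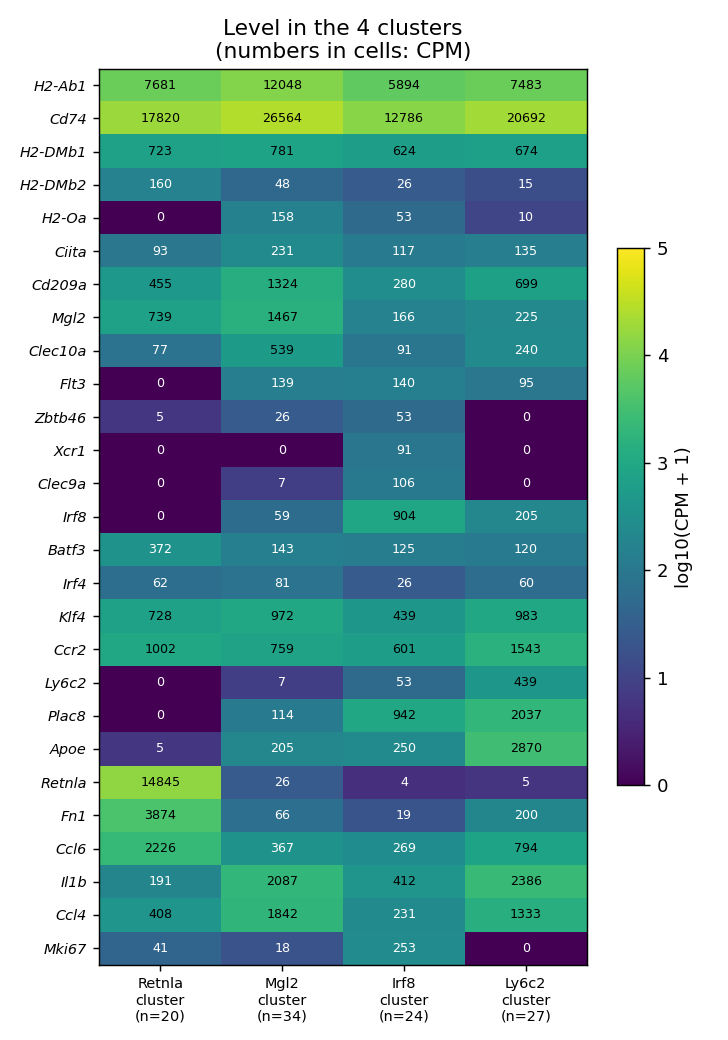
Summed level (CPM, written in each tile and coloured as log10(CPM + 1)) of 27 genes in the 4 clusters of class II-high cells from both libraries, n cells each. *H2-Ab1* and *Cd74* are high in all 4, whereas *Flt3* is at 0 in the *Retnla* cluster and *Zbtb46* at 0 in the *Ly6c2* cluster.

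Cell division was seen in a few callus cells. Of the callus class II-high cells, 9 had at least 10 UMIs of the 20-gene proliferation list, 7 of them in the *Irf8* cluster, and 4 cells held 66.4% of the list's 893 callus UMIs. In the intact library 0 of 9 cells reached 10 UMIs, and the list had 17 UMIs in all. *Mki67* was carried by 11 callus cells, with a highest value of 34 UMIs, and *Top2a* by 10. The highest values belonged to the cells with the red cell, *Mpo* and *Xcr1* UMIs and to 1 further cell.

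The second comparison set callus against intact class II-high cells and asked how these cells differed between a healing fracture and uninjured tissue. The mix of clusters differed between the libraries, with most intact cells in the *Retnla* cluster and no intact cell in the *Ly6c2* cluster, so a gene higher in one library may follow from the mix. Of 5241 genes with at least 20 UMIs over both libraries, 801 (15.3%) were at least 2-fold higher in the callus cells and 373 (7.12%) at least 2-fold lower, with a median log2 ratio of 0.05 over all 5241. The counting interval of the ratio excluded 1 for 146 of the higher and 177 of the lower genes. These are descriptions of 2 libraries, and a gene with 0 intact UMIs was entered at the limit of 3 counts.

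Higher in the callus cells by the naming rule were *Apoe*, *Ms4a6b*, *Tob2*, *Fam174a*, *Il10ra*, *Irf8*, *Cux1*, *Pou2f2*, *Arhgap9*, *Lst1*, *Ppfia4* and *Arl5c*. *Apoe*, the lipid carrier of macrophages, had 698 UMIs in 28 of 96 callus cells and 0 UMIs in 9 intact cells, and was at least 22.0-fold higher in callus with the intact 0 entered at 3 counts (counting interval from 17.9). In the other analysed cells *Apoe* was at 482 CPM in callus and 369 CPM in intact tissue. *Irf8* had 293 UMIs in 49 callus cells and 3 UMIs in 1 intact cell, a ratio of 9.25 (3.13 to 45.1). That intact cell also held 13 UMIs of the T cell list, including 3 of *Cd3d*.

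*Il10ra*, which encodes the receptor chain for interleukin 10, had 101 UMIs in 53 callus cells against 1 UMI in 1 intact cell, a ratio of 9.56 (1.68 to 381). *Ms4a6b* had 121 UMIs in 46 callus cells against 1 UMI, a ratio of 11.5 (2.02 to 456). *Lst1*, a myeloid transmembrane adaptor, had 176 UMIs in 52 callus cells against 2 UMIs in 2 intact cells, a ratio of 8.33 (2.27 to 69.3). *Apoe*, *Ms4a6b* and *Lst1* were also leading genes of the *Ly6c2* cluster, which had no intact cell, and *Irf8* of the cluster called by it.

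The rule could name no gene lower in callus, since it asks for 10 cells with a UMI and the intact library had 9. The following were chosen after their values were seen. *Hspa1b*, an inducible heat shock protein, had 49 UMIs in 8 of 9 intact and 91 UMIs in 27 of 96 callus cells, or 609 and 107 CPM, a ratio of 0.176 (0.123 to 0.254). In macrophages *Hspa1b* was at 719 CPM in the intact and 137 CPM in the callus library. *Slamf9*, an immune cell receptor, was at 261 and 80.0 CPM, a ratio of 0.307 (0.186 to 0.527). *mt-Atp8* was at 733 and 186 CPM. In all other analysed cells *mt-Atp8* was at 578 and 252 CPM, so it was also lower in the callus library outside these cells, while *Slamf9* was at 5.38 and 5.02 CPM there.

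**Figure D4:**
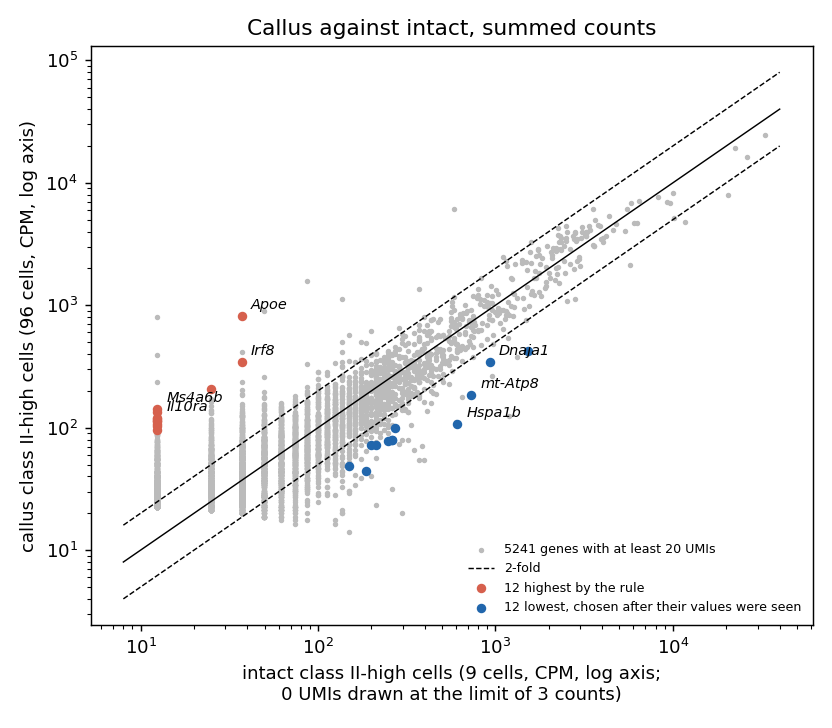
Summed CPM of 5241 genes in 9 intact (x) and 96 callus (y) class II-high cells on log axes, with genes at 0 intact UMIs drawn at the limit of 3 counts, equality as a solid line and 2-fold as dashed lines. Red points are the 12 genes named as higher in callus and blue points 12 lower genes chosen after their values were seen, from *Hspa1b* with a ratio of 0.176 upward.

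Functional gene lists are given by their counts, which are to be read against 15.3% of all genes higher and 7.12% lower. Of the 18 counted genes of class II presentation, 3 were at least 2-fold higher in callus and 1 lower, with a median log2 ratio of -0.12. *Ifi30*, the lysosomal thiol reductase that opens antigens for class II loading, was at 398 CPM in intact and 806 CPM in callus cells, a ratio of 2.03 (1.42 to 2.99). *Lgmn*, a lysosomal protease, and *H2-Oa* were the other higher genes, with 3 and 2 intact UMIs. *H2-DMb2* was the lower one, at 137 and 50.6 CPM, a ratio of 0.370 (0.188 to 0.796). It had 11 intact UMIs in 3 cells, 54.5% of them in 1 cell, so its place past 2-fold leaned on that cell. The list holds the 4 class II genes that chose the cells, so nothing is read from their levels. Of 15 counted class I genes, 1 was at least 2-fold higher and 0 lower, with a median of 0.27. *B2m*, the shared light chain, was at 957 and 1187 CPM.

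Levels of these genes are given only as a description within the 2 clusters that had more than 1 intact cell. In the *Retnla* cluster *Cd74* was at 24266 CPM in 6 intact and 14734 CPM in 14 callus cells, and *H2-Ab1* at 10577 and 6294 CPM. In the *Mgl2* cluster *Cd74* was at 15926 CPM in 2 intact and 27206 CPM in 32 callus cells, and *H2-Ab1* at 7351 and 12331 CPM. This rested on 1 cell, since the intact cell with 13 T cell UMIs held *Cd74* at 10560 CPM and *H2-Ab1* at 5833 CPM, whereas the other held them at 25512 and 10061 CPM. *Retnla* itself was at 4627 CPM in the intact cells of its cluster, with 290 UMIs in 2 of 6 cells, and at 19737 CPM in the callus cells, with 2584 UMIs in 12 of 14. *Fn1* was at 1484 and 5018 CPM.

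Inflammatory genes were uneven. Of 14 counted cytokine and chemokine genes, 5 were at least 2-fold higher in callus, against 15.3% of all genes, and 1 lower, with a median of 0.26. *Il1b* had 1163 UMIs in 60 of 96 callus and 30 UMIs in 3 of 9 intact cells, a ratio of 3.67 (2.56 to 5.46), and 27 of the intact UMIs were in the cell with T cell UMIs. *Ccl3* had 219 and 4 UMIs, a ratio of 5.18 (2.00 to 19.2), and *Ccl2*, the ligand of *Ccr2*, 270 and 11, a ratio of 2.32 (1.28 to 4.71). All 4 intact *Ccl3* UMIs and 90.9% of the intact *Ccl2* UMIs were in 1 cell each. *Cxcl2*, a neutrophil attractant, was lower, with 94 UMIs in 9 callus and 48 UMIs in 3 intact cells, a ratio of 0.185 (0.130 to 0.268), and 64 of the callus UMIs were in 1 cell. Of the 20 NF-kB and inflammatory genes, 3 were higher and 2 lower, with a median of 0.05.

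Of 10 counted pattern recognition genes, 5 were at least 2-fold higher in callus, against 15.3% of all genes, and 1 lower, with a median of 0.88. *Tlr2* had 65 UMIs in 36 callus cells and *Nlrp3*, the inflammasome sensor, 60 UMIs in 38, each against 1 intact UMI, with ratios of 6.15 (1.07 to 247) and 5.68 (0.981 to 228). *Clec4a2*, an inhibitory lectin, was lower, with 26 and 115 UMIs and a ratio of 0.419 (0.272 to 0.668). The higher members other than *Clec4a1* rested on 1 intact UMI each.

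Among 8 counted chemokine receptor genes 3 were higher, against 15.3% of all genes, and 0 lower, with a median of 0.49. *Cx3cr1*, the fractalkine receptor, had 122 UMIs in 46 callus cells and 0 in intact cells, and was at least 3.85-fold higher on the same terms (counting interval from 3.08). *Ccr7* was also counted as higher, with 93.5% of its callus UMIs in 1 cell and 1 intact UMI. *Cxcr4* had 113 UMIs in 44 callus and 2 UMIs in 2 intact cells, a ratio of 5.35 (1.45 to 44.7). *Ccr2* was 0.862-fold its intact level (0.689 to 1.09). Of 8 co-stimulation and checkpoint genes 1 was higher and 0 lower, with a median of 0.25. *Cd83* was at 211 and 400 CPM, a ratio of 1.89 (1.16 to 3.29), and *Cd86*, the ligand of CD28, at 87.0 and 131 CPM, with a ratio interval of 0.705 to 3.82.

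Of the 22 dendritic cell transcription factor genes 2 were higher and 2 lower, with a median of 0.08. The higher were *Irf8* and *Irf4*, the latter with 51 UMIs in 33 callus and 2 UMIs in 2 intact cells, a ratio of 2.41 (0.635 to 20.5). The lower were *Relb*, an NF-kB subunit, with 6 intact and 19 callus UMIs and a ratio interval of 0.115 to 0.917, and *Notch2*, a receptor, with a ratio of 0.450 (0.239 to 0.921). *Klf4* was at 646 and 784 CPM, a ratio of 1.21 (0.915 to 1.64). The ratio of *Irf4* was not distinguishable from 1 at this depth.

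Of 26 immediate-early and dissociation genes, which tissue digestion is known to induce, 0 were at least 2-fold higher in callus and 5 lower, against 7.12% of all genes, with a median of -0.30. The lower ones were *Hspa1b*, *Dnajb1*, *Hspa1a*, *Egr1* and *Egr2*. *Hspa1a* was at 957 and 262 CPM, a ratio of 0.274 (0.211 to 0.360), and *Egr1* at 547 and 226 CPM, a ratio of 0.413 (0.296 to 0.587). Of the 44 intact *Egr1* UMIs, 56.8% were in 1 cell. *Fos* was at 3255 and 3938 CPM, a ratio of 1.21 (1.07 to 1.38). The whole list summed to 25206 CPM in intact and 22449 CPM in callus class II-high cells, and was also lower in callus in macrophages (33432 and 21089 CPM), neutrophils (6953 and 3655 CPM) and all other analysed cells (16809 and 9905 CPM), though not in B cells (15633 and 20783 CPM). Within the *Retnla* cluster *Hspa1a* was at 1197 CPM in intact and 848 CPM in callus cells, and *Egr1* at 606 and 474 CPM.

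In the interferon response list 2 of 16 counted genes were higher and 4 lower, with a median of 0.30. *Isg15* had 24 intact UMIs, 23 of them in 1 cell, and 17 callus UMIs in 13 cells, a ratio of 0.0671 (0.0338 to 0.130). *Ifit3* had all 12 of its intact UMIs in the same cell, the deepest intact one, which held 187 of the list's 335 intact UMIs. *Ly6e* had 3 intact and 352 callus UMIs, a ratio of 11.1 (3.77 to 54.1). The lower interferon genes named here thus rested mainly on 1 intact cell.

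Of 12 hypoxia and glycolysis genes 0 were higher and 1 lower (median -0.38), of 10 repair and osteoclast-related genes 1 higher and 0 lower (0.05), and of 9 Fc receptor and uptake genes 0 in either direction (-0.03). *Fcer1g*, the shared Fc receptor chain, was at 2472 and 1820 CPM. *Osm*, oncostatin M, was the repair gene past 2-fold, with 22 callus and 1 intact UMI. Of 12 proliferation genes 6 were higher, against 15.3% of all genes, and 0 lower, with a median of 1.02. This rested on a few cells, since the median was -0.041 without the 7 cells (1 intact, 6 callus) that carried UMIs of other cell types.

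Marker lists of dendritic cells were counted in the same way, against 15.3% of all genes higher and 7.12% lower. In callus 3 of 11 counted type 1 genes were higher and 0 lower, 2 of 8 type 2 genes higher and 0 lower, 2 of 11 genes common to dendritic cells higher and 1 lower, and 1 of 4 genes of mature migratory cells higher and 1 lower. Of the higher type 1 genes, *Ppt1* (0.868 to 8.59) and *Wdfy4* (0.947 to 7.12) had ratio intervals that included 1. The median log2 ratios of the lists, in this order, were -0.08, 0.48, -0.12 and -0.69. These lists hold genes of the rule (*Xcr1*, *Cd209a*, *Flt3*, *Itgax*, *Cd74*, *H2-Ab1*), and *Flt3* was one of the higher ones. Of 10 counted monocyte genes 3 were higher and 0 lower, and the list summed to 3081 CPM in intact and 4165 CPM in callus cells. Of 5 counted granulocyte progenitor genes 2 were higher, and 1 callus cell held 241 of the 294 callus UMIs of that list.

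Marker lists of other cells also differed between the libraries. Of 7 counted muscle fibre genes 7 were at least 2-fold higher in the callus class II-high cells, against 15.3% of all genes, at 62.1 CPM for the list of 11 in intact and 468 CPM in callus. *Mylpf* was its most abundant gene, and 1 callus cell held 38.4% of the list's callus UMIs. The muscle list was also higher in callus in macrophages (204 and 1296 CPM), B cells (327 and 2149 CPM), monocytes (119 and 394 CPM) and neutrophils (305 and 443 CPM), but lower in all other analysed cells together (9086 and 4874 CPM). The red cell list was at 857 and 9845 CPM, with 97.6% of the callus UMIs in 1 cell. The higher callus level rested on that cell. *Hbb-bs*, the list's most abundant gene, had a median of 5 UMIs per intact and 1 UMI per callus class II-high cell. The neutrophil list was at 149 and 369 CPM. The macrophage list, at 584 and 1552 CPM, was concentrated in the *Ly6c2* cluster with 3974 CPM against 560 to 950 CPM in the others. The part of these other transcripts in the differences between the libraries was not tested.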

How the data were processed

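Counts were the authors' Cell Ranger UMI counts per gene and cell, deposited without normalization for barcodes called as cells (version 6.0.0 per the file headers, mm10 per the labels). For their own clusters the authors left out hematopoietic and endothelial cells, and limits on genes or mitochondrial UMIs were not given in the sources used here. The members and gene lists were chosen with earlier results of these data known. UMIs were summed over the cells of a library or cluster and divided by their total (CPM). Ratios have exact conditional binomial intervals, CPM exact Poisson and shares Clopper-Pearson intervals, all at 95%. The smallest count of a gene compared between libraries was 20 UMIs over both, and 0 counts were entered at 3. They cover counting error only. Comparison groups were taken by marker UMIs. These were the C1q genes for macrophages, *Ly6c2* and *Ccr2* for monocytes, *Cd79a* and *Cd79b* for B cells, and *S100a8* and *S100a9* for neutrophils. Clustering used scanpy 1.11.5 with 1500 variable genes, 15 components, 15 neighbours and Leiden resolution 0.5. Scrublet called 3 intact and 4 callus cells, 0.155% of all, so it has not worked and doublets were kept. Between libraries, named genes were the 12 highest and lowest ratios with at least 50 UMIs, 10 cells with a UMI where higher, no cell over 20% of its UMIs and a level at least that of other cells, and up to 6 genes per list. Marker lists of plasma, NK, endothelial, osteoclast and mast cells, fibroblasts and plasmacytoid cells held at most 3 counted genes each. Alternatives were other limits of the rule, cell filters, normalizations, minimum counts, resolutions and cells left out. Ratio, interval and thinning code was tested on simulated data. *Clec7a* and *Mx1* were not analysed here. Positions are from GENCODE M21 (GRCm38). Python 3.11.15, numpy 2.4.6, scipy 1.17.1 and pandas 2.3.3 were used.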

Additional observations from a re-analysis of the deposited data

How the results depend on the processing

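Under the other limits of the rule, stricter cell filters and removals of cells by Scrublet, marker UMIs, depth or a missing *Cd209a* UMI, 8 to 10 intact and 70 to 104 callus class II-high cells remained. Clustering gave 3 groups at a resolution of 0.3, with sizes of 20, 61 and 24 cells, and 5 at 1.0. Requiring 50 UMIs per gene gave 354 genes at least 2-fold higher and 126 lower in callus, of 2644 compared. Requiring 1 UMI gave 801 and 6129 of 12438, because genes with 0 intact UMIs enter at 3 counts. The following alternatives were chosen after seeing the data. Within the *Retnla* cluster alone, 144 genes were higher and 67 lower of 1384 compared, and the median log2 ratio of class II presentation was -0.55. Leaving out 7 cells (1 intact, 6 callus) with at least 10 UMIs of T cell, granulocyte progenitor, basophil, fibroblast or muscle lists or 50 of the red cell list turned the median log2 ratio of the proliferation list from 1.02 to -0.041. Leaving out the deepest intact cell gave 722 higher and 463 lower. No paired analysis was possible because each condition has 1 library. The comparison is limited by 1 library per condition, pooled mice, the different mix of clusters and depth, with a median of 4 intact UMIs per compared gene.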
